A study of Mus musculus with 15 samples.

Results

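Sp8, En2 and Grxcr2 are 3 of the 55359 genes measured in mouse neuroendocrine lung cancer cells, their allografts and normal lung. They were selected on measured values, as genes that are not lung genes and had the largest rises in one allograft over Lung (Sp8 in 46LCNEC_allo, En2 and Grxcr2 in 57SCLC_allo). Among genes with at least 50 normalized counts in every tumor, Sp8 was second of 12642 by the log2 fold change of 46LCNEC_allo over Lung, at 9.73, with Pkp1 just below it at 9.67. In 57SCLC_allo, Grxcr2 was first of 13713 genes at 11.69 and En2 followed at 11.16, with Elavl3 between them at 11.24 and Gm20468 just outside at 11.05. These values chose the genes, so they are descriptions and no test is given for them.

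The 46LCNEC line was derived from a large cell neuroendocrine carcinoma that arose after adenoviral Cre under the CMV promoter, and grows attached. The 57SCLC line came from a small cell lung carcinoma that arose after adenoviral Cre under the keratin 5 promoter, which is active in basal airway cells, and grows in suspension. Both tumors arose in QKO mice, in which several tumor suppressor genes are inactivated, among them Rb1, Rbl1 and Trp53. The groups were 46LCNEC_cell (dishes A, B and C), 57SCLC_cell (flasks A, B and C), 46LCNEC_allo (tumors 312, 319 and 321), 57SCLC_allo (tumors 275, 316 and 317) and Lung (CT3, CT4 and CT5), with 3 samples each. The allografts grew under the skin of immunocompetent QKO mice, and Lung was taken from littermates of these recipients. Ages were not given in the sources used here. Each line is 1 culture from 1 tumor, so a p-value covers the spread between dishes, flasks or tumors of that line and not between independent cancers. The sample names of the cultures carry strings that may be dates. These strings differ between the lines, and their last field also changes from replicate to replicate. The labels do not say what they stand for. If they are dates, line and date cannot be told apart.

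Sp8 and En2 encode transcription factors of the embryo. Sp8, a zinc finger factor of the Sp family, acts in the ridge that drives limb outgrowth and in the patterning of the forebrain. En2, an engrailed homeobox factor, patterns the midbrain and hindbrain at the boundary between them and works beside its relative En1 there. Grxcr2 is of another kind: it encodes a glutaredoxin-like protein of the stereocilia, the actin bundles with which the hair cells of the inner ear sense sound.

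The smallest library, tumor 275, held 9480244 counted reads and the largest, flask C, 44876572, with a median of 26502525. Values are normalized counts, that is, reads divided by the size factor of the library. All replicate pairs differed by more than counting noise, with a chi-square per degree of freedom from 2.80 (flasks A and B) to 144 (flasks A and C), so flask C stood apart from its group. The defining marker genes of alveolar epithelium summed to between 218561 and 293433 in Lung and to at most 1477 in the other libraries. Neuroendocrine markers summed to between 39500 and 59645 in 57SCLC, and in 46LCNEC their sum rested almost wholly on Ncam1, with 28614, 29684 and 31510.0 normalized counts of the latter in the cells.

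Sp8 lies at chr12:118810064-118816311 on the plus strand of GRCm39 (ENSMUSG00000048562). RefSeq lists several start sites for it. The stretches before the first pair of them are shown because they differ sharply in base composition, with each CG dinucleotide in capitals. They come from the RefSeq table built on GRCm38.p6 and were placed on GRCm39 by an exact and unique match. The first is chr12:118809814-118810063, just before the gene. The second is chr12:118810718-118810881, in the first intron of the longest transcript, and was ended where the exon of another transcript begins.
Sp8 start site 1: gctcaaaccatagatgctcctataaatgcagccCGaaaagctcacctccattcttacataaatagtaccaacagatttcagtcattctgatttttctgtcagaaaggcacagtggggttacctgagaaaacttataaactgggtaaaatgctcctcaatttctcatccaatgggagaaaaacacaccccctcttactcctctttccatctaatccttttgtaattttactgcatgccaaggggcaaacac
Sp8 start site 2: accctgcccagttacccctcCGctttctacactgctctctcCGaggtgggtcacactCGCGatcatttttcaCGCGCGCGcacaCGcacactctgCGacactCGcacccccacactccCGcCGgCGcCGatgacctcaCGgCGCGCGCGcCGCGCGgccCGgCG
The first stretch holds 1 CG in 250 bases, and 92.1% of the 32851 RefSeq windows of this length hold at least as many. The second holds 25 CG in 164 bases, a number that 1.91% of windows of this length reach. The letters CG read the same on both strands, so 1 search covers both. Counts per gene do not show which start the cells used.

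Sp8 was a gene of the 46LCNEC line, in culture as well as in tumors. Its normalized counts were 2525, 2162 and 2380.2 in dishes A, B and C (mean 2356 ± 183, SD, n = 3). Tumors 312, 319 and 321 had 956, 696 and 926 (859 ± 142, SD, n = 3). Every dish lay above every tumor, and the mean of the dishes was 2.74-fold that of the tumors. In Lung no read of Sp8 was counted in any of the 3 libraries, which allows up to 2.24, 2.99 and 3.51 normalized counts in CT3, CT4 and CT5 at a limit of 3 reads each, for counting error only. The name "switched on in tumors" therefore describes the contrast with Lung and not the step from culture to tumor, since the cells already held the transcript.

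In the 57SCLC line Sp8 was low. Flasks A, B and C had 41.5, 38.0 and 103 normalized counts (60.9 ± 36.7, SD, n = 3), and flask C held 2.60-fold the mean of the other flasks. Tumors 275, 316 and 317 had 2.39, 0 and 18.2 (6.85 ± 9.86, SD, n = 3), which are 1 read, 0 reads and 16 reads. The tumor with most Sp8 was tumor 317, and the flasks lay above all tumors. The order of the group means was 46LCNEC_cell, 46LCNEC_allo, 57SCLC_cell, 57SCLC_allo and Lung. No neighbors in this order overlapped except 57SCLC_allo and Lung, which share a value of 0.

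The values of the cultures took no part in choosing the genes, but the allografts that chose them were grown from these lines. The choice therefore favors a large difference between the cultures. That difference was tested with limma on log2(normalized count + 1) and is given as a description. A gene was called at an adjusted p (Benjamini-Hochberg, over all 16920 genes tested) no higher than 0.01 if its fold change also reached 2. Sp8 was 38.7-fold lower in 57SCLC_cell than in 46LCNEC_cell (log2 fold change -5.40, SE 0.34, limma adjusted p = 2.46e-06). Without flask C it was 59.3-fold lower (log2 fold change -5.85, SE 0.10, limma adjusted p = 4.62e-08). The lines differed widely, since 46.1% of all genes tested were called in either direction, 23.9% higher and 22.2% lower in 57SCLC_cell. Read against this share, calls of the members between the cultures are not unusual, and their sizes, which the choice also favors, are descriptions.

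From flasks to tumors of 57SCLC, the log2 fold change of Sp8 was -3.79 (SE 0.97) and was not called, with a limma adjusted p of 0.0152. In this comparison 2.29% of 17078 genes were called lower and 14.4% higher. Sp8 passed the filter here through the flasks, the group in which it was high, so its call is not read as a result. Without tumor 317 the value was -4.92, where tumors 275 and 316 held 1 read and 0 reads. Markers of other cell types were higher in the tumors. The endothelial markers summed to between 35.6 and 44.3 in the flasks, where Cdh5, Kdr and Emcn were each at or below 3 reads in every library, and to between 2412 and 3438 in the tumors. The leukocyte markers went from between 230 and 256 to between 2525 and 4230, and the fibroblast markers from between 20.5 and 25.6 to between 15419 and 24129. The part of host RNA in the lower values of tumors was not tested. In bulk RNA, fewer cells of a type and less RNA per cell cannot be told apart.

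The other Sp factors show which of this family the samples held. Sp1 and Sp3, the widely expressed members, passed the filter in every comparison and were called in none. Sp7, a factor of bone-forming cells, had 1142, 1021 and 1034 normalized counts in the dishes of 46LCNEC and 9.27, 5.26 and 1.11 in its tumors. It fell by 7.70 on the log2 scale (SE 0.54), but passed the filter only through the dishes, so no p-value is given. In that comparison 8.45% of 16375 genes were called lower and 14.4% higher. In the 57SCLC line Sp7 had at most 1.81 normalized counts. Sp4 was 3.07-fold higher in 57SCLC_cell than in 46LCNEC_cell (log2 fold change 1.61, SE 0.09, limma adjusted p = 9.93e-07). Sp5 was a gene of Lung, with 256, 242 and 351 normalized counts there and at most 2.83 elsewhere. Sp9, the closest relative of Sp8, stayed between 1.04 and 7.08 in 14 libraries and reached 39.7 in tumor 317. Of the 6 Sp factors other than Sp8 that passed the filter over Lung, 0 were called higher in either allograft, while 2 were called lower in 46LCNEC_allo (Sp5 and Sp6) and 1 in 57SCLC_allo (Sp5). The latter count was 2 without tumor 317. The background over Lung was 13.4% called higher and 22.1% lower of 18033 genes for 46LCNEC_allo, and 18.9% higher and 26.9% lower of 18517 genes for 57SCLC_allo.

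**Figure D1:**
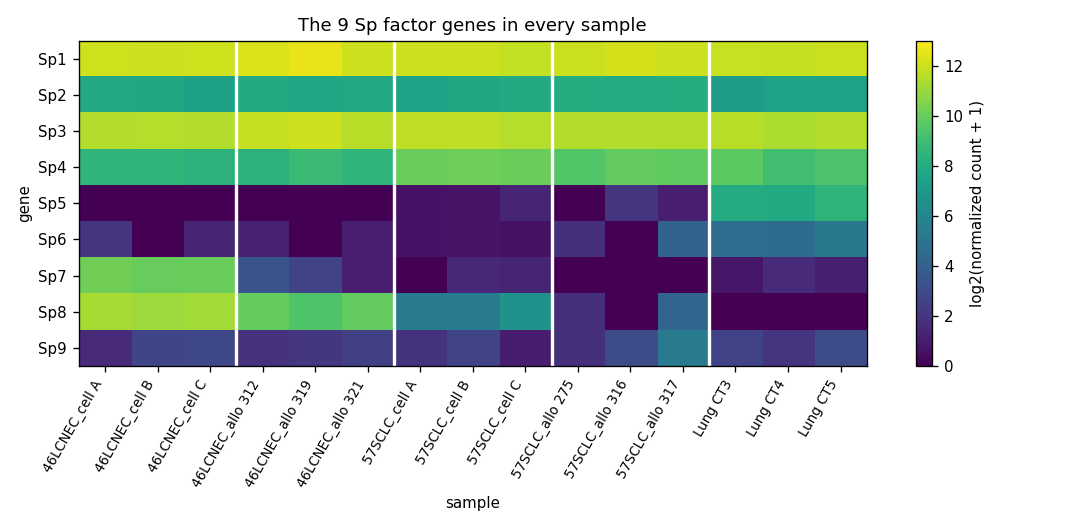
Expression of the 9 Sp factor genes (rows) in the 15 samples (columns, named by group and replicate) as log2(normalized count + 1), with white lines between groups. Sp8 and Sp7 stand out in the dishes of 46LCNEC, where Sp7 has 1142, 1021 and 1034 normalized counts, while in the tumors of that line Sp8 persists at 696 to 956 and Sp7 is at most 9.27.

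En2 lies at chr5:28370689-28377195 on the plus strand (ENSMUSG00000039095), and the only annotated gene that overlaps it, Gm43610, was at 0 in all samples. En2 was high in the 57SCLC line. Flasks A, B and C had 4528, 4297 and 2943 normalized counts (3923 ± 856, SD, n = 3), and tumors 275, 316 and 317 had 3653, 4848 and 3396 (3966 ± 775, SD, n = 3). These groups overlapped, and the mean of the tumors was 1.01-fold that of the flasks, and the difference between them was smaller than the spread within either group. In Lung, En2 was at 1.49, 0.997 and 0, which are 2 reads, 1 read and 0 reads.

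En2 was also present at a lower level in 46LCNEC. The dishes had 104, 92.7 and 115 normalized counts (104 ± 11, SD, n = 3) and tumors 312, 319 and 321 had 18.5, 13.7 and 22.1 (18.1 ± 4.24, SD, n = 3). All tumors lay below all dishes and above all Lung samples. The tumors of this line did not choose En2, so the step from dishes to tumors was tested. En2 fell by 2.48 on the log2 scale, or 5.74-fold (SE 0.28, limma adjusted p = 0.000437), and Grxcr2 did not pass the filter. The fibroblast markers summed to between 20948 and 23548 in the dishes and between 160688 and 349011 in the tumors. The endothelial markers went from between 321 and 385 to between 4909 and 8464, and the leukocyte markers from between 327 and 383 to between 7231 and 12231. Ncam1, the neuroendocrine marker of this line, was at 3058, 7384 and 4040.0 in the tumors. The part of host RNA in the lower En2 was not tested.

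Between the cultures, En2 was 37.7-fold higher in 57SCLC_cell (log2 fold change 5.20, SE 0.17, limma adjusted p = 6.87e-08). Flask C, which held the most Sp8 of the flasks, held the least En2, with the mean of flasks A and B 1.5-fold higher. The order of the group means was 57SCLC_allo, 57SCLC_cell, 46LCNEC_cell, 46LCNEC_allo and Lung, and only the first pair overlapped.

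En1, the close relative of En2, was distributed in another way. It had 726, 755 and 820.3 normalized counts in the dishes of 46LCNEC and 963, 390.5 and 649 in the tumors. In 57SCLC it was at 0, 1.2 and 0 in the flasks and at 115, 79.3 and 111 in tumors 275, 316 and 317. All Lung samples were at 0. En1 was thus lower in 57SCLC_cell than in 46LCNEC_cell and higher in 57SCLC_allo than in its flasks, the latter in all 3 tumors. It passed the filter in each comparison only through the group in which it was high, so no p-value is given. The part of host RNA in the En1 of these tumors was not tested. The log2 fold changes of the model, -9.20 and 6.28, depend on the pseudocount, since the flasks held 2 reads in all.

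Grxcr2 lies at chr18:42118388-42132120 on the minus strand (ENSMUSG00000073574). It was detected in the 57SCLC line, with 1 read in all other samples together. Flasks A, B and C had 868, 923 and 606 normalized counts (799 ± 169, SD, n = 3), and tumors 275, 316 and 317 had 3246, 3487 and 3177 (3303 ± 162, SD, n = 3). All tumors lay above all flasks, and their mean was 4.13-fold higher. The tumors chose this gene, so the step is a description with no test. In the 46LCNEC line, 0 reads were counted in the dishes and 1 read in the tumors, in tumor 319, and Lung had 0 reads.

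Between the cultures, Grxcr2 was at least 284-fold higher in 57SCLC_cell, against a limit of 3 reads per library in 46LCNEC_cell. It passed the filter only through the flasks, the group in which it was high, so no p-value is given. As for En2, flask C had less of it, and the mean of flasks A and B was 1.48-fold that of flask C. Grxcr1, its paralog in the stereocilia, had at most 4.25 normalized counts in any library.

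**Figure D2:**
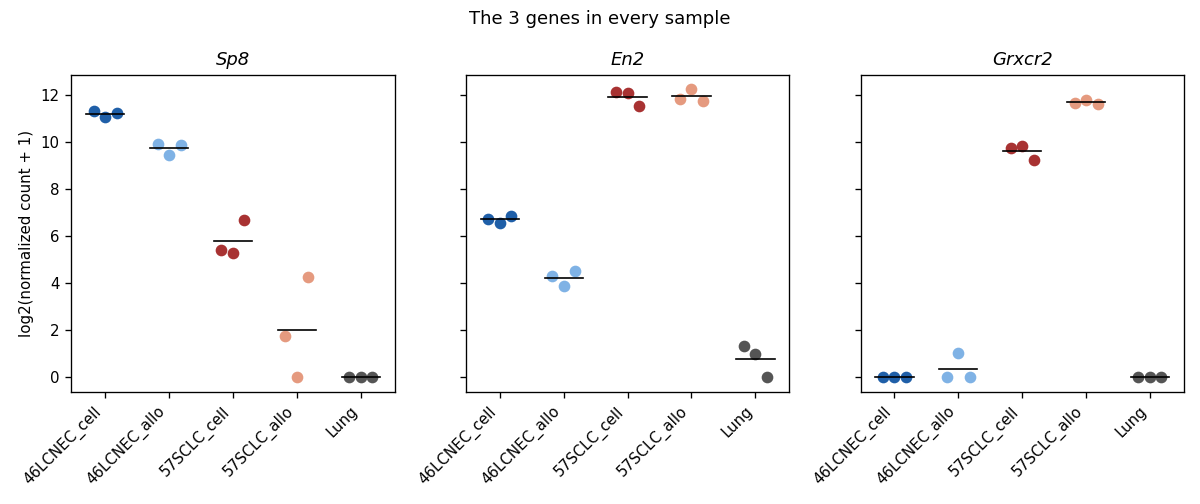
Sp8, En2 and Grxcr2 in every sample, as log2(normalized count + 1) on the vertical axis, with 1 point per sample and a black bar at the mean of each group of 3. Sp8 steps down from the dishes of 46LCNEC to Lung, En2 is level between flasks and tumors of 57SCLC, and Grxcr2 is at 0 reads or 1 read outside that line, with tumors at 3177 to 3487 above flasks at 606 to 923.

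Levels of different genes were compared per kilobase of annotated exon. On this scale the mean of Grxcr2 in 57SCLC_allo was 1648 normalized counts per kb, that of En2 846, and that of Sp8 in 46LCNEC_allo 166. These levels were above 98.7%, 96.1% and 66.8% of the protein-coding genes with any read in the respective group. In culture, En2 reached 837 per kb and Grxcr2 399 in 57SCLC_cell, above 95.8% and 87.2% of genes, and Sp8 reached 454 per kb in 46LCNEC_cell, above 87.4%. In 57SCLC_allo, Grxcr2 thus stood above En2 per kb, while in the flasks the order was the reverse.

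The genes next to the members on the chromosome were read in the same way, taking the 3 nearest protein-coding genes on each side. The neighbor of En2 at 28.5 kb, Cnpy1, which encodes a small protein of FGF signaling at the midbrain-hindbrain boundary, was high in the same line. It had 8348, 8951 and 9017 normalized counts in the flasks and 7241, 8223 and 7943 in the tumors of 57SCLC. In 46LCNEC it stayed at or below 17.7 and in Lung at or below 11. Its means were 12.3 in 46LCNEC_cell, 2.55 in 46LCNEC_allo and 6.32 in Lung. Unlike En2, Cnpy1 was thus not higher in the tumors of 46LCNEC than in Lung. It was 716-fold higher in 57SCLC_cell than in 46LCNEC_cell (log2 fold change 9.45, SE 0.28). In 57SCLC_allo it was 1234-fold higher than in Lung (log2 fold change 10.19, SE 0.34). In both comparisons Cnpy1 passed the filter only through the 57SCLC group, where it was high, so no p-value is given. The next gene on that side, Rbm33, at 145 kb, ranged only from 3213 to 5153 over all 15 samples. Shh, next in line, a signaling ligand of lung and limb, had 410.4, 696 and 577 in Lung and at most 5.67 elsewhere.

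Around Sp8, Abcb5, an ABC transporter gene at 14.8 kb, had 50.7, 55.2 and 67.7 normalized counts in the dishes of 46LCNEC and 29.1, 12.6 and 23.2 in the tumors. It was at most 2.61 in every other library. It was lower in 57SCLC_cell (log2 fold change -4.69, SE 0.48), like Sp8, but passed the filter only through the dishes, so no p-value is given. The integrin gene Itgb8, at 305 kb, had 921, 865 and 773 in the dishes and 685, 1193 and 809 in the tumors of 46LCNEC, with 1 read over the 3 flasks of 57SCLC. Unlike Sp8, it was present in Lung, at 77.0, 98.7 and 104. On the other side Sp4, at 545 kb, moved the opposite way between the cultures, as given above.

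Around Grxcr2, both nearest genes rose from flasks to tumors of 57SCLC. Prelid2, at 33.9 kb, had 26.2, 21.1 and 204 normalized counts in the flasks and 481, 616 and 528 in the tumors (log2 fold change 3.44, SE 0.74, limma adjusted p = 0.00704). Without flask C the log2 fold change was 4.46 (SE 0.18, limma adjusted p = 3.64e-06), or 22.9-fold in place of 6.46-fold. Flask C held most of it, as it did for Sp8 and not for Grxcr2. Unlike Grxcr2, Prelid2 was also present elsewhere, with means of 154 in 46LCNEC_cell, 221 in 46LCNEC_allo and 88.5 in Lung. The part of host RNA in its rise was not tested. Sh3rf2, at 53.4 kb, had 24.5, 27.7 and 31.8 in the flasks and 122, 362 and 220.1 in the tumors (log2 fold change 2.89, SE 0.37, limma adjusted p = 0.000421). Sh3rf2 was however highest in Lung, at 1852, 2008 and 2298, where Grxcr2 was at 0, and the part of host RNA in its rise was not tested. Kctd16, more than a megabase away, had 83.5, 82.0 and 805 in flasks A, B and C and 43.1, 96.3 and 119 in the tumors, a step that was not called, with a log2 fold change of -1.15, or -0.06 without flask C. Gm17695, Htr5a and Plac8l1 did not pass the filter in any comparison, and the remaining neighbors (Cdca7l, Dnah11, Macc1, Insig1, Yipf5 and Lars) were all present in every group.

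**Figure D3:**
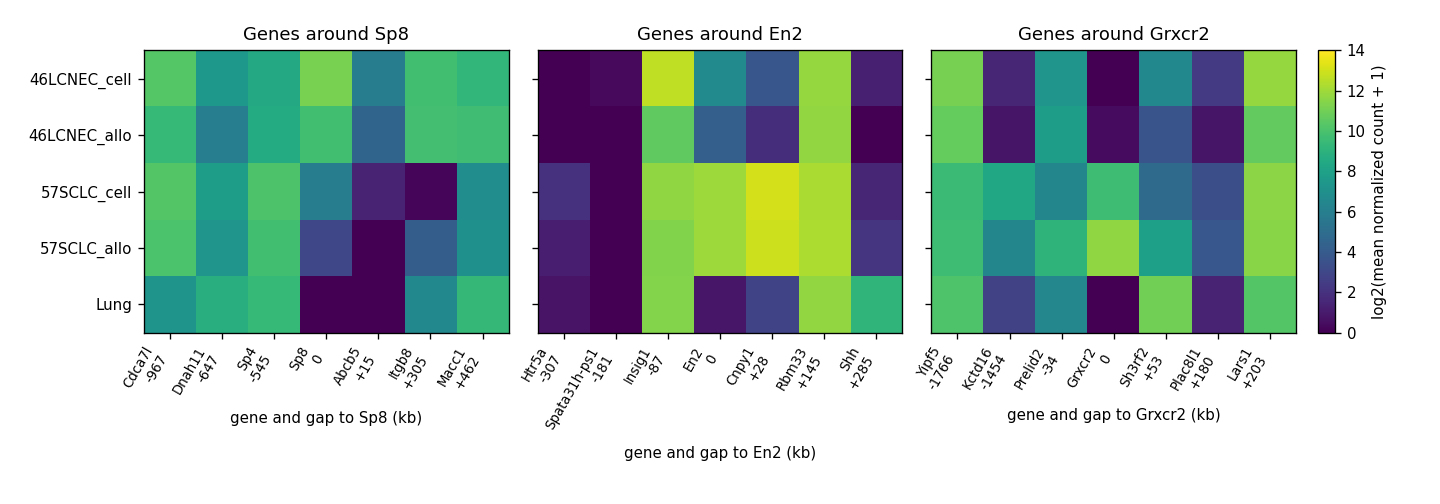
Mean expression per group (rows) of Sp8, En2 and Grxcr2 and of the 3 nearest protein-coding genes on each side (columns, with the gap to the member in kb), as log2(mean normalized count + 1). Cnpy1 is high in 57SCLC, as En2 is, with group means of 8772 and 7803 there and at most 12.3 elsewhere. Genes farther from En2 show no such contrast between the lines.

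Which other genes of the same programs were on was read from 5 lists of genes known for their roles beside the members. Some list genes, such as Dlx2, Ush1c and Lhx3, passed the filter over Lung only through the tumors in which they were high. That favors calls, so the shares called and the medians are descriptions. The first list holds 27 genes of the limb ridge and the ventral forebrain, where Sp8 acts. Over Lung, 20 of them passed the filter in 46LCNEC_allo, of which 8 were called higher and 4 lower (40% and 20%, against 13.4% and 22.1% of all genes). With all 15 samples in 1 model, 7 were called lower. The largest rises were of Dlx2 and Dlx5 (homeobox factors of ventral forebrain and limb), Grem1 (a BMP antagonist of the limb bud) and Lmx1b (a homeobox factor of dorsal limb and of the isthmus). Dlx2 had 351, 509 and 243 normalized counts in the tumors of 46LCNEC and 1117, 1032 and 995 in the dishes. Every other library had at most 1.2 of it. Grem1 had means of 3783 in the dishes and 9086 in the tumors of this line. The part of host RNA in the values of these tumors was not tested. Wnt7a, Fgf10, Bmp4 and Fgfr2, signaling genes that normal lung also uses, were the 4 called lower. The median log2 fold change of the list was -0.33, beside -0.14 over all genes.

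In 57SCLC_allo, 17 genes of this list passed, with 7 called higher than Lung and 6 lower (41.2% and 35.3%, against 18.9% and 26.9% of all genes). The largest rises were of Wnt3 (a ligand of the limb ridge), Lmx1b, Prokr2 and Emx2. In the flasks, Prokr2 and Emx2 had means of only 1.48 and 0 normalized counts. The part of host RNA in their values in the tumors was not tested. Wnt3 had 2597, 2462 and 2062 normalized counts in the flasks and 1934, 2497 and 1759 in the tumors, against at most 6.64 in 46LCNEC. Bmp4, Wnt7a, Fgf10 and Nr2f1 led those called lower. The median was 0.55, beside -0.09 over all genes. Between the cultures, 9 of 17 genes were called lower in 57SCLC_cell and 4 higher (52.9% and 23.5%, against 22.2% and 23.9% of all genes), with a median of -1.29. Those lower included Bmp4, Dlx2, Grem1 and Dlx5, and the 4 higher were Wnt3, Fgf9, Jag2 and Lmx1b. Fgf8, a signal of both the limb ridge and the midbrain-hindbrain boundary, had at most 4.17 normalized counts in any library.

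The second list holds 15 genes of the midbrain and hindbrain, where En2 acts. In 57SCLC_allo, 8 passed the filter over Lung, with 5 called higher (Cnpy1, Lmx1b, En1, Lmx1a and Gbx1) and 2 lower (Pax5 and Fgf18), or 62.5% and 25% against 18.9% and 26.9% of all genes. In 46LCNEC_allo, 4 of 8 were called higher (En1, Lmx1b, Gbx2 and Gbx1) and the same 2 lower (50% and 25%, against 13.4% and 22.1%). The medians were 3.06 and 3.20, beside -0.09 and -0.14 over all genes. In both allografts, every gene called higher passed the filter only through the tumors, where it was high. The filter thus favored these shares and medians, which are descriptions. In the flasks of 57SCLC, En1 and Lmx1a had means of only 0.402 and 0.375 normalized counts. The part of host RNA in their values in the tumors was not tested. Pax5, which B cells also express, had 1044 normalized counts on average in Lung. The count of 2 genes lower in 46LCNEC_allo fell to 1 without tumor 312 or tumor 319 and to 0 without CT3, CT4 or CT5. Between the cultures, Cnpy1, Pax2 and Lmx1b were called higher in 57SCLC_cell and En1, Otx1 and Gbx2 lower, of 9 tested. Otx2 and Wnt1, which mark the midbrain and its border, had at most 32.6 normalized counts.

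The third list holds 32 genes of the stereocilia and their mechanics, of which 31 were found by name and Myo15a was not. In 57SCLC_allo, 12 of 20 were called higher than Lung and 4 lower (60% and 20%, against 18.9% and 26.9% of all genes), and the median was 1.30. The largest rises were of Ush1c and Lhfpl5 (parts of the tip link and transduction complexes), Espn (an actin bundler of stereocilia) and Adgrv1. Espn had 8532, 8059 and 7145 normalized counts in the flasks, 10360.4, 10854 and 9887 in the tumors, and 705, 662 and 699 in Lung. In 46LCNEC_allo, 2 of 20 were called higher (Myo7a and Ptprq) and 4 lower (10% and 20%, against 13.4% and 22.1%), with a median of -0.45, and the 2 fell to 1 without tumor 321, CT3, CT4 or CT5. Between the cultures, 10 of 19 were called higher in 57SCLC_cell, led by Espn, Otof, Pcdh15 and Ush1c, and 3 lower (Myo7a, Whrn and Cib2), or 52.6% and 15.8% against 23.9% and 22.2% of all genes. Espn was 423-fold higher in 57SCLC_cell (log2 fold change 8.66, SE 0.14, limma adjusted p = 3.88e-09). Pcdh15 had 141, 122 and 684 in flasks A, B and C, so flask C carried most of it, and without flask C its log2 fold change between the cultures was 5.66 in place of 6.45, still called. The channel subunits Tmc1 and Tmc2 stayed at or below 17.2. Myo7a and Whrn, which hair cells need as well, had 1173 and 3328 normalized counts on average in 46LCNEC_cell and 10.2 and 72.4 in 57SCLC_cell.

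The fourth list holds 9 transcription factors of hair cells. In 57SCLC_allo all 6 that passed the filter were called, 4 higher (Insm1, Lhx3, Gfi1 and Rfx3) and 2 lower (Eya1 and Barhl1), or 66.7% and 33.3% against 18.9% and 26.9% of all genes, with a median of 3.30. Insm1 is also a general neuroendocrine factor and is in the marker list used above. Gfi1 had 2265, 2198 and 1783 normalized counts in the flasks and 2044, 3243 and 2260.5 in the tumors, and 62.8, 68.8 and 38.6 in Lung. Pou4f3, a defining factor of hair cells, was at 13.6 in tumor 317 and at most 5.45 elsewhere. In 46LCNEC_allo, Eya1 was called higher and Barhl1 and Insm1 lower, of 5, with a median of -2.57. The 2 lower fell to 1 without tumor 312 or CT5 and to 0 without CT3 or CT4. Between the cultures, Insm1 and Gfi1 were called higher and Eya1 lower in 57SCLC_cell, of 5 tested, and Eya1 was joined by 1 further gene without flask C.

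**Figure D4:**
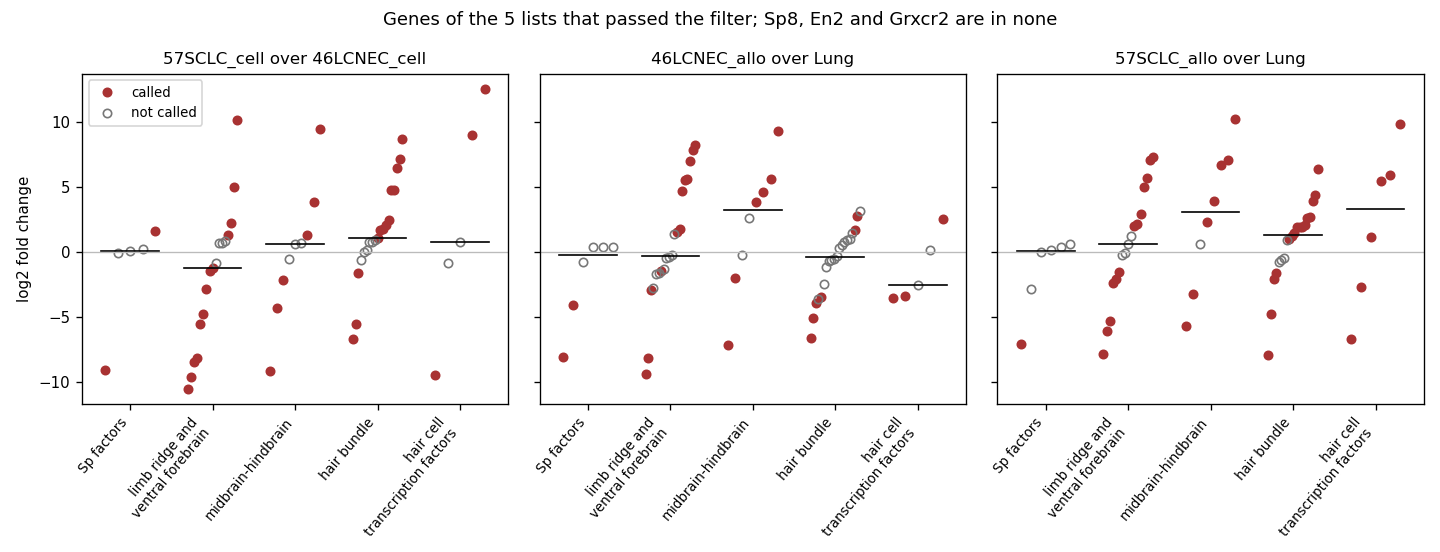
Log2 fold changes (limma) of the list genes that passed the filter, 1 point per gene, for 57SCLC_cell over 46LCNEC_cell and for each allograft over Lung, with filled points for called genes and a black bar at the median of each list. Hair bundle genes have a median of 1.30 in 57SCLC_allo and -0.45 in 46LCNEC_allo, and no Sp factor is called higher over Lung.

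Finally, the genes most like each member over the 15 samples were found by the Pearson correlation of log2(normalized count + 1), among 16777 genes with a mean of at least 50 in some group. The samples form 5 groups that differ in many genes, so these values describe the shared pattern over groups and carry no p. The closest to Grxcr2 were Gm48612 (r = 0.998), Atoh7 (0.998), Gabrd (0.996), Gm48812 (0.996) and Cbln4 (0.995). Atoh7 encodes a factor of retinal neurons, and Cbln4 a secreted synaptic protein. Like Grxcr2, Atoh7 had a higher mean in tumors than in flasks, 162 against 63.6, with 0 in 46LCNEC and Lung, and Cbln4 had 322 against 72.4. The closest to En2 were Gpr19 (0.993), Ppp2r2d (0.992), Syngr3 (0.992), Pcgf6 (0.992) and Hmgn2 (0.991), which were present in Lung as well. The synaptic vesicle gene Syngr3 had means of 602 and 750.4 in 57SCLC_cell and 57SCLC_allo, 94.2 and 32.2 in 46LCNEC, and 8.21 in Lung. The closest to Sp8 were Clcn5 (0.964), Ak5 (0.963), Disp1 (0.960), Psmc2 (0.960) and Mtfr1 (0.956), all at lower r than for the other members. The adenylate kinase gene Ak5 had means of 1525 and 856 in 46LCNEC_cell and 46LCNEC_allo, 219.7 and 70.3 in 57SCLC, and 58.4 in Lung.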

How the data were processed

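RNA was poly-A selected and sequenced as read pairs. The authors used Rbowtie2 for alignment to GRCm39 and featureCounts with GENCODE release 27 for counting, then DESeq2 size factors to scale each library, and the deposited signal values are these normalized counts. The handling of strand and of reads with several alignments is not given in the sources used here. Whole reads were recovered by dividing by the smallest value of each library, and 100% of values were whole within 0.01. Positions came from GENCODE release 39 on the same build, whose names Spata31h-ps1 and Lars1 stand in the deposited matrix as Gm17695 and Lars.

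Groups were compared with limma 3.58.1 (mean-variance trend, R 4.3.3) on log2(normalized count + 1), using the 6 samples compared and a filter that kept genes reaching 10 normalized counts in 3 or more of them, with Benjamini-Hochberg adjusted p-values. Of the 3 members, 3 passed this filter between the cultures and in 57SCLC_allo over 57SCLC_cell, and 2 in each other comparison. A test is given only where a contrast did not choose the gene. Fold changes are ratios of means, and log2 fold changes understate low genes through the pseudocount. For fold changes, a group with at most 3 reads in every library was set to 3 reads per library, averaged over its libraries.

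The members, the 5 lists and the marker genes were chosen with earlier results of these data known. Genes named are the members, at most 4 called genes per list and direction with the largest fold changes, the closest relative of each member, the 3 nearest neighbors per side, the 5 genes most like a member, and those next to a member in the order that chose it. Sp1, Sp3, Gbx1, Fgf8, Otx2, Wnt1, Tmc1, Tmc2, Pou4f3, Emx2 and Krt14 were named after their values were seen. Some genes under this rule are not reported here.

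Alternatives were edgeR 4.0.16 and DESeq2 1.42.0 on the reads, pseudocounts of 0.1 and 5, no filter, scaling by library size, all 15 samples in 1 model, each sample left out (filter of 2 samples), and the culture letter as a block. A difference between the lines in the step from culture to tumor (limma interaction term, 12 samples) was added after the data were seen. The limma procedure was tested on simulated data for the comparison of the cultures. There it recovered 99% of 200 altered genes among 16362, and the interaction term 82.5% among 16363. The simulation used a single size of change, a single spread for all genes and no genes with few reads. In the real data 46.1% of genes were called between the cultures and flask C stood apart, so recovery there was not measured. Figures were drawn with matplotlib 3.10.9 in Python 3.11.15.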

Additional observations from a re-analysis of the deposited data

Results flagged for a closer look

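The lists and neighbors hold genes whose change from culture to tumor differed between the lines, which was tested after the data were seen with a limma interaction term over the 12 samples of the lines. Of 103 such genes, 73 passed the filter and 24 were called, beside 17.5% of all 18440 genes. Values are the log2 change in 57SCLC minus that in 46LCNEC. Sp7 and Lmx1a passed the filter only through a single group, where they were high, so no range of p-values is given. Values of genes near 0 in 57SCLC_cell, such as Sp7, En1 and Lmx1a, depend on the pseudocount. The members themselves were not tested in this way, since their tumors chose them.

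Among relatives of the members, the value was 6.75 for Sp7 and 6.58 for En1. Sp7 was near 0 in both groups of 57SCLC, with means of 1.12 and 0 normalized counts, so its value rests on 46LCNEC, where the mean went from 1066 to 5.21. En1 rose in 57SCLC from a mean of 0.402 to 102, while in 46LCNEC it was 767 and 668.

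Among genes near the members, the value was 5.94 for Sh3rf2, beside Grxcr2. Its mean went from 28.0 to 235 normalized counts in 57SCLC and from 91.8 to 11.7 in 46LCNEC, in opposite directions. The others near a member were Itgb8 (3.79), Insig1 (1.86) and Lars (1.08).

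Among limb, forebrain and midbrain-hindbrain genes, the value was 5.63 for Bmp4, 4.88 for Nr2f1, 3.69 for Lmx1a, 3.62 for Prokr2, 3.52 for Dlx5, 2.65 for Grem1, 1.26 for Tshz1 and -2.10 for Gbx1. Bmp4 fell in 46LCNEC from a mean of 4341 to 698 and rose in 57SCLC from 2.20 to 20.9.

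Among hair bundle genes, the value was 4.55 for Adgrv1, 3.17 for Myo7a, 2.99 for Whrn, 2.56 for Ush1c, 2.45 for Lhfpl5 and 1.33 for Cib2. It was -6.10 for Pcdh15, -4.46 for Eps8l2 and -3.58 for Espn. Pcdh15 fell in 57SCLC, where flask C held 684 of its normalized counts, and without flask C its value was -5.30 (limma adjusted p = 0.00365). Among hair cell transcription factors it was 4.21 for Lhx3. The part of host RNA in these changes was not tested.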

How the results depend on the processing

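The difference between the cultures kept its direction and call in all 14 alternatives for Sp8 (-5.85 to -5.14 on the log2 scale) and En2 (5.09 to 5.44), while the value of Grxcr2, with 0 reads in 46LCNEC_cell, ran from 7.31 to 13.18. So did the fall of En2 in 46LCNEC in all 13, from -2.63 to -2.25. For Sp8 in 57SCLC_allo over 57SCLC_cell the direction held in all 13, and the call depended on the setting. It passed with DESeq2 (-3.06), a pseudocount of 5 (-2.66) and all 15 samples in 1 model (-3.79), and values with 1 sample left out ran from -4.92 to -2.79. Adjusted p-values ran from 0.00106 to 0.0605, and the cause was not tested. Sp8 passed the filter there through the flasks, where it was high, so its call is not read as a result. Scaling by library size moved the median of all genes by 0.23 between the cultures and 0.21 in 57SCLC_allo over Lung, and calls between the cultures went from 4043 higher and 3756 lower to 4847 and 3223. With a pseudocount of 5 or all 15 samples in 1 model, 2 Sp factors were called lower in 57SCLC_allo.

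The culture letters did not pair the samples (correlations 0.094, -0.093 and -0.008). With them as a replicate block the values were -5.40, 5.20 and 9.62 and 4041 genes were called higher, in place of 4043. Of the 5 genes most like a member, 3 stayed within the closest 25 for Sp8 and 1 for En2 by Spearman correlation, and 3 for Sp8 over the group means.

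Depth limited Sp8 in 57SCLC_allo, where 3 reads were worth 3.40 to 7.18 normalized counts, and Grxcr2 in 46LCNEC, which was not detectable there at this depth beyond 1 read. The values of Prelid2, Kctd16 and Pcdh15 without flask C were chosen after seeing the data.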

Other observations

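Tumor 317 had the highest values among the tumors of 57SCLC in several genes that were low in this group. Over all genes it did not stand apart. The chi-square per degree of freedom was 17.8 between tumors 316 and 317, and 43.8 and 29.4 for tumor 275 against 316 and 317. Tumor 317 had 18.2 normalized counts of Sp8, 39.7 of Sp9, 15.9 of Sp6 and 13.6 of Pou4f3. Tumors 275 and 316 had at most 2.39 of Sp8, 7.08 of Sp9, 2.39 of Sp6 and 0 of Pou4f3. The flasks of the line held more Sp8 than any of its tumors. Tumor 312 of 46LCNEC had 1075 normalized counts of the keratinocyte gene Krt14, where tumors 319 and 321 had 72.6 and 50.9, while its Sp8, at 956, was close to the 926 of tumor 321. Emx2, a forebrain factor, was at 40.7, 11 and 55.6 in the tumors of 57SCLC and at 0 in all flasks and in Lung. It was at 15.9, 30.5 and 174 in the tumors of 46LCNEC and at most 1.88 in the dishes, so all tumors of each line lay above its cultures. The part of host RNA in these values was not tested.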
